A study of Homo sapiens with 32 samples.

Results

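Secreted chemokines and cytokines of the interleukin-6 family are described here in RPE-1 cells that were given serum after a period without it. The group has 9 genes of the 19023 in the count table, taken by symbol: the CXC chemokines CXCL8 (ENSG00000169429), CXCL1 (ENSG00000163739), CXCL2 (ENSG00000081041) and CXCL3 (ENSG00000163734), the CC chemokine CCL2 (ENSG00000108691), and the cytokines IL6 (ENSG00000136244), LIF (ENSG00000128342), IL11 (ENSG00000095752) and CLCF1 (ENSG00000175505). RPE-1 is an established, immortalised human line that comes from retinal pigment epithelium, and all cells here were wild type. Serum was withheld for 18 h and then returned, and harvests were made at 0 h, 5 h, 10 h and 15 h of serum. At each time, 4 biological replicates were sequenced as total RNA (RNA-seq) and 4 as ribosome-protected fragments (footprints), which count the stretches of mRNA held by ribosomes. Starved cells were not followed to the later times, so effects of serum and of the hours passed cannot be told apart.

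Chemokines are small secreted proteins that draw white blood cells along a gradient. CXCL8 (interleukin-8), CXCL1, CXCL2 and CXCL3 act on neutrophils through the receptor CXCR2, and CCL2 acts on monocytes through CCR2. Cytokines of the interleukin-6 family bind a receptor of their own and then share the signalling chain gp130, encoded by IL6ST, which activates JAK kinases and the transcription factor STAT3. Many of these genes are known targets of NF-kB and AP-1, and many of their mRNAs carry AU-rich elements that shorten mRNA life.

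RNA libraries held 595851 to 1107470 counts and footprint libraries 2851423 to 9901322, so a count of 0 over the 4 RNA libraries of a time still allowed 0.796 to 0.958 CPM (counts scaled to the library total), and 0.095 to 0.149 CPM in footprints (a limit of 3 counts, covering counting error only). The 10 h RNA library of replicate 1 correlated slightly better with the 15 h group (mean r 0.945) than with its own (0.940). Of the 11 pigment epithelium markers, RPE65, TYR, DCT, TTR and PMEL had 1, 2, 1, 0 and 4 RNA counts over 16 libraries. TYRP1 (15), RLBP1 (20), BEST1 (85), MERTK (91), OTX2 (108) and MITF (359) had more. Of the 8 epithelial and mesenchymal markers, VIM (83885), KRT18 (11042), KRT8 (9489) and CDH2 (5370) were abundant. COL1A1 had 24 RNA counts, KRT19 7, and CDH1 and EPCAM 2 each. Of the blood cell genes, HBB, HBA1 and CD3E had no RNA count and PTPRC had 7; CD68 had 234. The summed level of the 13 blood cell markers was 21.6 to 29.3 CPM in RNA at 5 h and 25.4 to 49.1 CPM at 0 h, and in footprints 95.6 to 122 and 82.5 to 102 CPM. The 11 pigment epithelium markers summed to 76.3 to 85.8 CPM in RNA at 0 h and 23.8 to 40.0 at 5 h, and their part in the results was not tested. With bulk RNA, fewer cells making a transcript and less of it per cell cannot be told apart, and without a spike-in each change is relative to the other genes.

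Only 4 of the 9 genes (CXCL8, IL6, LIF and IL11) passed the filter on low counts in RNA and 7 in footprints, where CXCL1 and CXCL2 did not. Genes that passed only because they were high at 5 h had to be higher then than at the other times. Counts and medians over them, for the rise and for the fall, are not read as support.

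The promoters of 6 of the 9 genes are listed in RefSeq (GRCh38.p14). All of these but IL11 hold a match to an NF-kB motif just before their start. CCL2, LIF and CLCF1 are not listed, so the 9 genes cannot be divided by this motif. Each line gives the 150 bases before the start of the gene, 5′ to 3′ on the gene's strand, with matches to the NF-kB motif GGANNTTCC or the AP-1 motif TGANTCA in capitals. CXCL8 starts at chr4:73740569, CXCL1 at chr4:73869393, IL6 at chr7:22727200, all on the plus strand. On the minus strand, CXCL2 starts at chr4:74099195, CXCL3 at chr4:74038689 and IL11 at chr19:55370463.
CXCL8: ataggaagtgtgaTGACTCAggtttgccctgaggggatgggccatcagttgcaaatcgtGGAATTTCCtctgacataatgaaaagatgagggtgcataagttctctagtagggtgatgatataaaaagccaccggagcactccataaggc
CXCL1: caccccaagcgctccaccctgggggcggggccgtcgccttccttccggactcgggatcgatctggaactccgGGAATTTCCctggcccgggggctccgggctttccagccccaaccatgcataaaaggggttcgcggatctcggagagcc
CXCL2: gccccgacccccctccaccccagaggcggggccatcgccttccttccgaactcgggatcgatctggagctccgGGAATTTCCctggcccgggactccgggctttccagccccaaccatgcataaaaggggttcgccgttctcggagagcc
CXCL3: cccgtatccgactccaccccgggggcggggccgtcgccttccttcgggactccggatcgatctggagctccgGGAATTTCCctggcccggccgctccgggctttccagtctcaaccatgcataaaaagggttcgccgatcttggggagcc
IL6: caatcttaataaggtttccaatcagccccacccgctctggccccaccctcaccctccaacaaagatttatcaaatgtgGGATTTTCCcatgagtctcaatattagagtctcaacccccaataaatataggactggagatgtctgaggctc
IL11: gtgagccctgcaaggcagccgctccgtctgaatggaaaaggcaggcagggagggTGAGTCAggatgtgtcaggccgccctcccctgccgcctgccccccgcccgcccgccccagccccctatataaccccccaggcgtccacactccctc

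In the 250 bases before the start, read on both strands, the NF-kB letters lay 91 to 83 bases before CXCL8, 78 to 70 before CXCL1 and CXCL3, 77 to 69 before CXCL2 and 72 to 64 before IL6. None were in the IL11 window, which says only that these letters are not there. The AP-1 letters lay 137 to 131 bases before CXCL8 and 96 to 90 before IL11. Over 35116 listed promoters, 3.84% held the NF-kB letters and 6.57% the AP-1 letters in the same window. Neither the CRE letters TGACGTCA (1.65% of promoters) nor the CArG box (1.16%) was found in the 6 windows. The 2 motifs shown do not overlap in CXCL8. CXCL1, CXCL2 and CXCL3 are close copies of one another on chromosome 4, in promoter as in coding sequence, so how reads that fit several of them were assigned bears on their counts, a step not given in the sources used here. CCL2 (chr17:34255285-34257203), LIF (chr22:30240453-30246759) and CLCF1 (chr11:67364168-67374177) complete the set.

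CXCL8 was close to absent without serum and among the most abundant mRNAs 5 h later. Its RNA counts over replicates 1 to 4 were 0, 1, 3 and 1 at 0 h, 671, 1192, 1116 and 1226 at 5 h, 47, 38, 34 and 55 at 10 h and 22, 13, 16 and 27 at 15 h. Every 5 h library stood above every other, and every 10 h and 15 h library stayed above the 0 h libraries. In CPM, RNA went from 1.72 ± 1.85 to 1248 ± 84.5, then 46.8 ± 7.17 and 21 ± 6.67 (SD, n = 4 libraries here and for all such values below). Scaled to coding length, CXCL8 ranked 17 among the 19023 genes at 5 h and 2296 at 15 h.

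Footprints of CXCL8 numbered 0, 1, 1 and 2 at 0 h and 2181, 2641, 3063 and 3607 at 5 h. They then numbered 154, 155, 143 and 125 at 10 h and 55, 73, 91 and 52 at 15 h. The 4 times did not overlap once scaled, at 0.177 ± 0.135, 403 ± 78.0, 18.5 ± 2.24 and 9.31 ± 2.67 CPM. With only 5 RNA and 4 footprint counts at 0 h, the rise is known within wide limits: 786-fold in RNA (95% counting interval 337 to 2422) and 2023-fold in footprints (790 to 7428). Both rises passed the test (edgeR's quasi-likelihood test, Benjamini-Hochberg adjusted p = 1.05e-15 and 2.59e-12). From 5 h to 10 h CXCL8 fell by 4.74 ± 0.19 on the log2 scale in RNA and by 4.46 ± 0.18 in footprints (± SE of the fit). It was the only tested member called lower from 10 h to 15 h, by 1.15 ± 0.24 in RNA (edgeR adjusted p = 0.00283) and by 1.04 ± 0.26 in footprints (0.0059). In that step 2.11% of all genes tested were called lower in RNA and 20.2% in footprints.

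**Figure D1:**
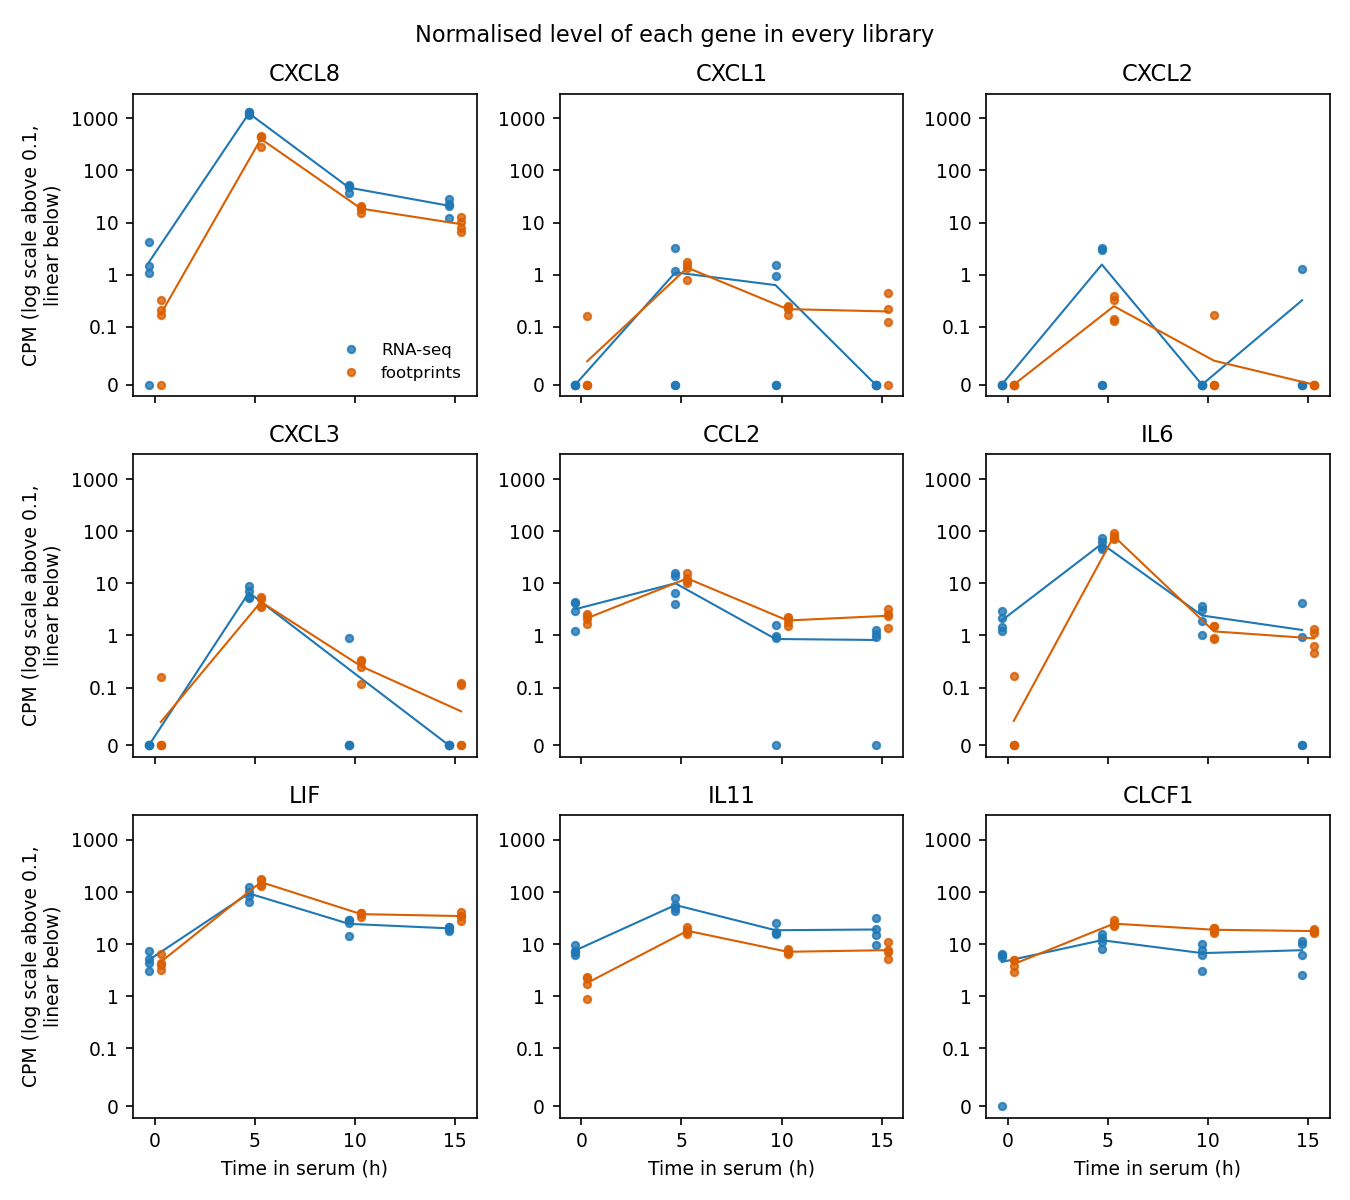
CPM of the 9 genes in each library (y axis, log scale above 0.1 and linear below) against hours in serum, with RNA-seq in blue and footprints in orange, 4 libraries per time and assay; points are libraries and lines join the means. CXCL8 runs from 1.72 to 1248 CPM in RNA between 0 h and 5 h, and every gene has its highest mean at 5 h in both assays.

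CXCL3 followed the same course at a much lower level. It had no RNA count at 0 h, 3, 9, 6 and 5 at 5 h, 1 in all at 10 h and none at 15 h. That is 7.16-fold higher at 5 h than a limit of 3 counts over the 0 h group, with counting error at 5 h left out. The 5 h libraries overlapped no others. Its footprints numbered 0, 0, 0 and 1 at 0 h, 27, 22, 38 and 40 at 5 h, 2, 1, 3 and 2 at 10 h and 0, 0, 1 and 1 at 15 h. The footprint rise was 89.4-fold (95% counting interval 15.8 to 3560, edgeR adjusted p = 7.94e-13), and the fall to 10 h was 4.04 ± 0.51 on the log2 scale (adjusted p = 5.69e-13). At 10 h and 15 h CXCL3 did not pass against 0 h (adjusted p = 0.0759 and 0.836), though without the 0 h library of replicate 4, which holds the single 0 h count, the 10 h value passed (log2 3.92, adjusted p = 0.0242).

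CXCL1 and CXCL2 were barely detected. CXCL1 had 0, 0, 1 and 3 RNA counts at 5 h and none at 0 h, and CXCL2 had 0, 3, 0 and 3 against none. At this depth no RNA change was detectable in either (exact permutation test on CPM, 2-sided, p = 0.429 for both). In footprints CXCL1 had 6, 8, 11 and 14 counts at 5 h against 1 in all at 0 h, a ratio of 27.5 (95% counting interval 4.65 to 1112), and 7 in all at 10 h and again at 15 h. CXCL2 had 3, 2, 1 and 1 footprints at 5 h against none at 0 h. That is 1.64-fold above a limit of 3 counts over the 0 h group, with counting error at 5 h left out. The 5 h footprint libraries of both genes stood above all those of 0 h (exact permutation p = 0.0286, the smallest that 4 against 4 libraries allow). Adjusted over the 14 such tests made on members below the filter, that p became 0.0571, so none passed.

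CCL2, the monocyte chemokine, was the member whose footprints were plainly present before serum and back in the same range by 10 h. Its footprints numbered 7, 12, 14 and 10 at 0 h, 85, 62, 90 and 123 at 5 h, 18, 18, 17 and 9 at 10 h and 14, 24, 21 and 11 at 15 h. Scaled, these were 2.15 ± 0.405, 12.4 ± 2.33, 1.94 ± 0.35 and 2.39 ± 0.770 CPM, with 5 h apart from the rest and the others overlapping. The rise was 2.54 ± 0.25 on the log2 scale (5.83-fold, edgeR adjusted p = 3.94e-14) and the fall from 5 h to 10 h 6.34-fold (adjusted p = 6.14e-16). Against 0 h, the differences of -0.12 ± 0.30 at 10 h and 0.11 ± 0.29 at 15 h did not pass (adjusted p = 0.714 and 0.741). In RNA CCL2 had 1, 4, 3 and 2 counts at 0 h, 9, 4, 12 and 6 at 5 h, and 3 in all at 10 h and at 15 h. The 5 h and 0 h RNA libraries overlapped (exact permutation p = 0.0857, adjusted 0.12), while all 5 h libraries were above those of 10 h (exact p = 0.0286, adjusted 0.0571).

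IL6, which acts on many tissues in fever, the acute-phase response and B-cell maturation, rose and fell further in footprints than LIF, IL11 and CLCF1. RNA counts were 1, 2, 1 and 2 at 0 h, 26, 61, 63 and 46 at 5 h, 1, 2, 2 and 4 at 10 h and 0, 1, 0 and 4 at 15 h. These amount to 1.94 ± 0.798, 57.5 ± 13.1, 2.42 ± 1.17 and 1.28 ± 1.98 CPM, with only 5 h apart. The rise was 30.5-fold (95% counting interval 13.8 to 84.2, edgeR adjusted p = 1.44e-08). From 5 h to 10 h IL6 RNA fell by 4.52 ± 0.53 on the log2 scale, and at 10 h it did not differ detectably from 0 h (0.30 ± 0.78, adjusted p = 0.767), nor did it at 15 h (-0.49 ± 0.89, adjusted p = 0.642).

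IL6 footprints were 0, 0, 1 and 0 before serum and 535, 454, 576 and 741 at 5 h. They numbered 7, 13, 8 and 9 at 10 h and 2, 10, 12 and 5 at 15 h. Scaled, IL6 went from 0.0423 ± 0.0847 to 80.2 ± 10.1 CPM and on to 1.20 ± 0.374 and 0.877 ± 0.404. From a single 0 h count the rise was 1624-fold with a counting interval of 291 to 64176 (edgeR adjusted p = 3.11e-30). The fall to 10 h was 67.5-fold (log2 change -6.08 ± 0.26, adjusted p = 5.68e-31). Footprints at 10 h and 15 h were still above 0 h (adjusted p = 1.88e-05 and 0.000115), with 37 and 29 counts against 1. The span of the antisense gene IL6-AS1 overlaps that of IL6, and the strand setting of the counting is not given in the sources used here. Whether any IL6-AS1 reads were counted as IL6 cannot be told.

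LIF, named for its effect on leukaemia cells and also an embryo implantation and stem cell factor, had the second highest mean level of the members at 5 h per length of coding sequence and kept part of its rise. Its RNA counts were 6, 5, 3 and 2 at 0 h, 38, 125, 86 and 78 at 5 h, 14, 30, 19 and 28 at 10 h and 20, 23, 14 and 19 at 15 h. LIF footprints were 11, 19, 39 and 27 at 0 h, 1051, 779, 1228 and 1422 at 5 h, 320, 281, 350 and 235 at 10 h and 153, 252, 309 and 331 at 15 h. In both assays 0 h lay below and 5 h above all the others, and 10 h and 15 h overlapped. RNA rose from 4.97 ± 1.80 to 94.1 ± 25.4 CPM (log2 4.19 ± 0.37, edgeR adjusted p = 5.64e-10) and footprints from 4.57 ± 1.44 to 155 ± 25.2 CPM (5.03 ± 0.29, adjusted p = 2.32e-12). At 15 h LIF was still 3.88-fold above 0 h in RNA and 7.21-fold in footprints (adjusted p = 0.000109 and 3.46e-08). LIF-AS1 and LIF-AS2 overlap LIF, with the same limit as for IL6.

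IL11, a gp130 cytokine studied in bone marrow and in fibrosis, had the highest mean RNA level of the members per length before serum. Its 0 h libraries overlapped on that scale with those of CCL2, LIF and CXCL8. RNA counts were 5, 9, 5 and 5 at 0 h, 25, 77, 47 and 46 at 5 h, 17, 16, 16 and 18 at 10 h and 9, 16, 25 and 19 at 15 h. Footprints numbered 3, 8, 14 and 14, then 129, 93, 133 and 166, then 58, 56, 61 and 48, then 47, 48, 63 and 61. In footprints, 0 h lay below and 5 h above the later times, which overlapped each other, while in RNA the 15 h and 0 h libraries overlapped. The rise at 5 h was 7.34-fold in RNA (log2 2.88 ± 0.37, edgeR adjusted p = 5.27e-07) and 9.32-fold in footprints (3.22 ± 0.27, adjusted p = 2.42e-17). IL11 then held at 2.41-fold (RNA, adjusted p = 0.00724) and 3.72-fold (footprints, adjusted p = 5.85e-09) above 0 h at 15 h.

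CLCF1, a gp130 ligand, rose in footprints about as much as CCL2 (5.70-fold against 5.83-fold) and fell least of the members tested. Footprints were 10, 18, 29 and 30 at 0 h, 167, 174, 165 and 197 at 5 h, 132, 153, 187 and 123 at 10 h and 85, 154, 150 and 146 at 15 h. That is 4.14 ± 0.936, 24.8 ± 2.96, 18.9 ± 1.75 and 17.8 ± 1.36 CPM, with all later libraries above all of 0 h. The rise was 5.70-fold (log2 2.51 ± 0.17, edgeR adjusted p = 7.94e-19), the fall to 10 h 1.31-fold (0.39 ± 0.10 on the log2 scale, adjusted p = 0.000641), and the 15 h level 4.07-fold above 0 h (adjusted p = 2.37e-15). RNA counts were 5, 6, 4 and 0 at 0 h, 9, 13, 7 and 10 at 5 h, 3, 8, 4 and 11 at 10 h and 6, 11, 2 and 11 at 15 h. Pooled over libraries, CLCF1 RNA was 2.43-fold higher at 5 h (95% counting interval 1.31 to 4.74), and the libraries of 0 h and 5 h did not overlap (exact permutation p = 0.0286, adjusted 0.0571). Another gene, LOC100130987, overlaps CLCF1.

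Counted together, all 4 tested members were higher at 5 h than at 0 h in RNA, where 19.2% of 8775 genes were called higher, and all 7 in footprints, where 35.2% of 10959 were. The median log2 change of the members was 4.50 in RNA and 5.03 in footprints, beside -0.03 and -0.07 over all genes tested. From 5 h to 10 h all 4 and all 7 were lower (9.56% and 30.7% of genes tested), with medians of -3.24 and -2.66 beside -0.06 and -0.01. These counts and medians cover only members that passed the filter, some through 5 h alone, and are not read as support. At 10 h against 0 h, 3 of 4 were higher in RNA (23.3% of genes) and 5 of 7 in footprints (39.4%). At 15 h against 0 h the counts were 3 of 4 (25.4%) and 5 of 7 (40.1%). CXCL8, LIF and IL11 were the members above 0 h in RNA at both times, and CXCL8, IL6, LIF, IL11 and CLCF1 those in footprints. No tested member was called lower than at 0 h at any time.

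The members differed in how much of the 5 h level was left. In footprints at 10 h, IL6 stood at 1.49% of its 5 h level, CXCL8 at 4.59%, CXCL3 at 5.83%, CCL2 at 15.6%, LIF at 24.3%, IL11 at 39.6% and CLCF1 at 76.3%. In RNA the shares were 3.75% for CXCL8, 4.21% for IL6, 26% for LIF and 32.8% for IL11. The chemokines and IL6 kept the least, and LIF, IL11 and CLCF1 the most.

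Whether these falls differ was tested on the log2 ratio of the counts of 2 members within each library, which needs no scaling. For 20 of the 21 pairs of the 7 members tested in footprints, the ratio at 10 h overlapped with that at 5 h in no library (exact permutation test, 2-sided, p = 0.0286, the smallest possible with 4 against 4, adjusted 0.03 over the 21). IL6 fell more than CXCL8 by 1.61 on the log2 scale, CXCL3 more than CCL2 by 1.20, CCL2 more than LIF by 0.61, LIF more than IL11 by 0.70, and IL11 more than CLCF1 by 0.94. The pair that did not pass was CXCL8 and CXCL3, whose ratio moved by -0.58 (exact p = 0.143), on 8 CXCL3 counts at 10 h. Of the 6 RNA pairs, CXCL8 and IL6 each fell more than LIF and IL11, by 2.43 to 3.16 (exact p = 0.0286, adjusted 0.0429). In RNA, CXCL8 against IL6 (-0.36) and LIF against IL11 (-0.36) did not pass (exact p = 0.286 for both), so the larger fall of IL6 than of CXCL8 was measured in footprints only.

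**Figure D2:**
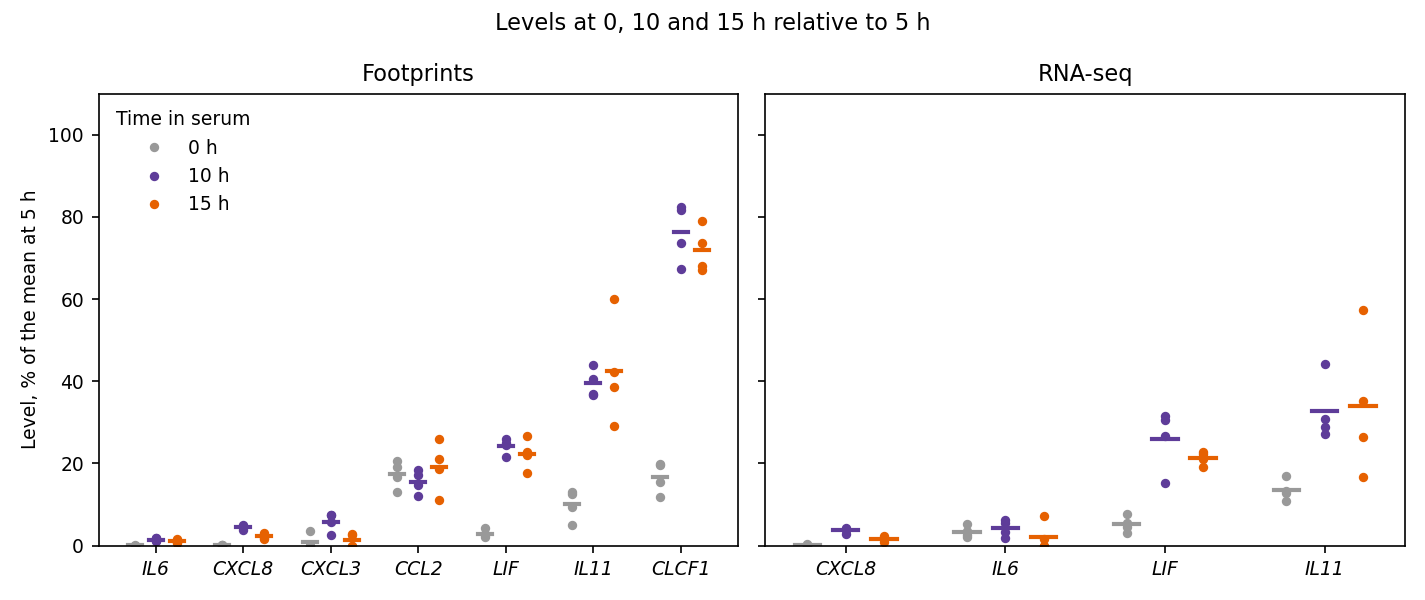
Level at 0 h (grey), 10 h (purple) and 15 h (orange) as a percentage of the gene's mean at 5 h (y axis), for the members tested in footprints (left) and in RNA-seq (right); points are the 4 libraries per time and bars their means. At 10 h footprint means run from 1.49% for IL6 to 76.3% for CLCF1, and the 0 h, 10 h and 15 h footprint libraries of CCL2 overlap one another.

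Levels of different genes were set side by side per kilobase of the given length, read as coding length but not checked against full coding sequences. On this scale CXCL8 led at 5 h with 5201 ± 352 CPM per kb in RNA and 1681 ± 325 in footprints. LIF followed with 171 ± 46.3 and 283 ± 45.9. In RNA, LIF, IL11 (104 ± 27.4) and IL6 (99.3 ± 22.6) overlapped their neighbours in the order, as did CCL2 (41.8 ± 23.5), CXCL3 (25.3 ± 6.75) and CLCF1 (19.3 ± 5.03) below them. In footprints IL6 (139 ± 17.5) was apart from LIF above it and from CCL2 (51.8 ± 9.69) below it. CCL2, CLCF1 (40.1 ± 4.79) and IL11 (33.4 ± 4.48) overlapped, and CXCL3 (16.7 ± 3.55), CXCL1 (5.15 ± 1.60) and CXCL2 (0.942 ± 0.512) each stood alone. By 15 h the order in footprints had LIF first (63.0 ± 10.3), then CXCL8 (38.8 ± 11.1) and CLCF1 (28.8 ± 2.21), each overlapping the next, while in RNA CXCL8 (87.5 ± 27.8) was still apart from LIF (36.6 ± 2.78). Before serum the order in footprints was CCL2 (8.97 ± 1.69), LIF (8.32 ± 2.62) and CLCF1 (6.70 ± 1.51), which overlapped, then IL11 (3.35 ± 1.26), with the CXC chemokines and IL6 under 1 CPM per kb.

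**Figure D3:**
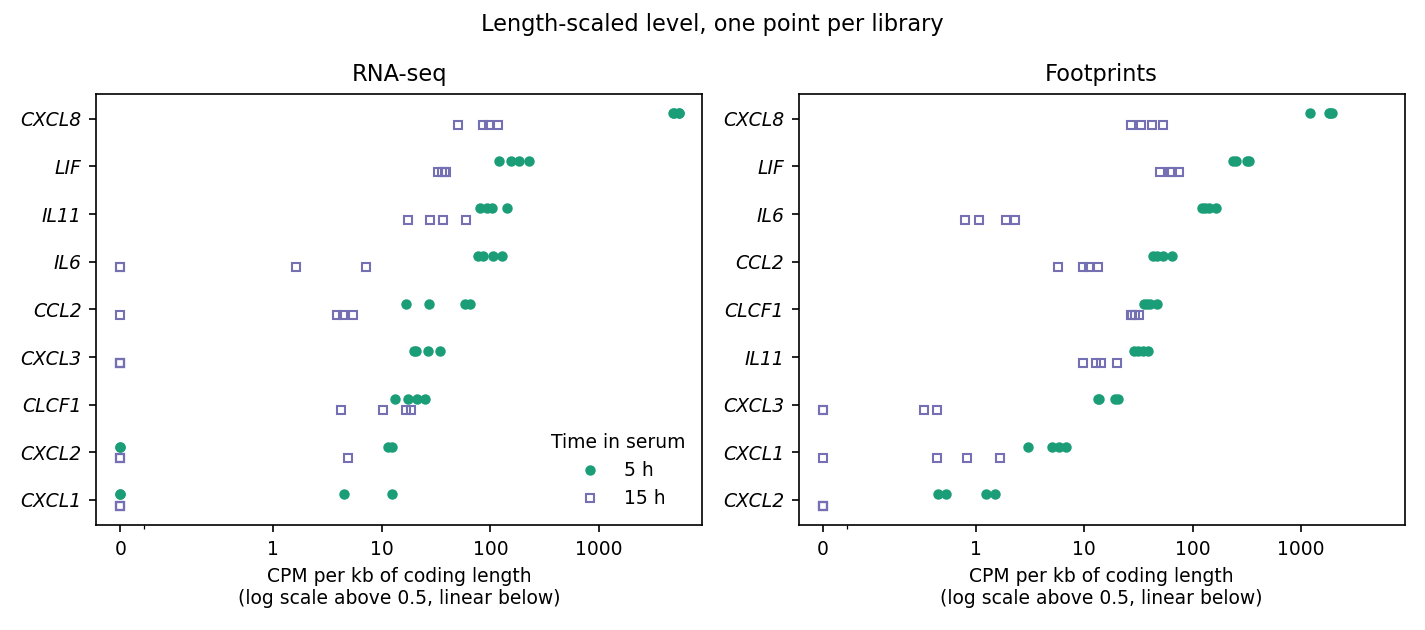
CPM per kilobase of coding length in each library (x axis, log scale above 0.5 and linear below) for the 9 genes, ordered by their 5 h mean, in RNA-seq (left) and footprints (right); filled circles are 5 h and open squares 15 h, 4 libraries each. CXCL8 stands alone at 5 h, with means of 5201 in RNA and 1681 in footprints, and at 15 h LIF has the highest footprint mean.

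Footprints relative to RNA, the measure of translational efficiency (TE), set the members apart at a given time. At 5 h the log2 ratio of footprint to RNA CPM was -1.63 for CXCL8 (counting interval -1.69 to -1.59) and -1.64 for IL11 (-1.92 to -1.43), at percentiles 11.9 and 11.7 of 8735 genes, whose median was -0.37. LIF (0.72, percentile 83.0), IL6 (0.48, 77.4) and CLCF1 (1.06, 88.6) lay above the median. The ratio compares 2 kinds of library and its zero has no absolute meaning. These sides held at 10 h and 15 h for CXCL8 (-1.34 and -1.17), IL11 (-1.37 and -1.32), LIF (0.62 and 0.78) and CLCF1 (1.49 and 1.22), but not for IL6 (-1.01 and -0.54), whose values there rest on 9 and 5 RNA counts.

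Change in TE was tested for CXCL8, IL6, LIF and IL11 as the assay-by-time term of 1 edgeR fit. From 5 h to 10 h none of the 4 passed, at log2 changes of 0.24 ± 0.23 for CXCL8, -1.53 ± 0.61 for IL6, -0.11 ± 0.27 for LIF and 0.28 ± 0.31 for IL11 (edgeR adjusted p = 0.841, 0.478, 0.953 and 0.873). In that step 0.652% of 8736 genes were called, and 1 of the 4 members, IL6, had an unadjusted p under 0.05. From 10 h to 15 h no gene passed in edgeR (0% called, 542 with an unadjusted p under 0.05, 2 called by DESeq2), and no member reached an unadjusted p under 0.05. Against 0 h, IL6 alone passed at 5 h (adjusted p = 0.0055, with 4.13% of genes called higher) and at 15 h (adjusted p = 0.0461, 7.03% called higher). At 10 h no member passed (5.44% called higher; IL6 adjusted p = 0.0927 in edgeR, the 1 member with an unadjusted p under 0.05, and 0.039 in DESeq2). These IL6 calls rest on 1 footprint and 6 RNA counts at 0 h. From the pooled counts, the footprint-to-RNA ratio of IL6 was 53.0 times higher at 5 h than at 0 h, with a counting interval of 6.38 to 2398. The 15 h call was lost when any 1 of 12 libraries was left out, with adjusted p from 0.0506 to 0.1 and log2 changes from 3.56 to 4.16. CXCL8, LIF and IL11 had TE changes of 1.16 ± 1.11, 0.75 ± 0.53 and 0.26 ± 0.48 at 5 h, which did not pass (adjusted p = 0.544, 0.493 and 0.816).

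**Figure D4:**
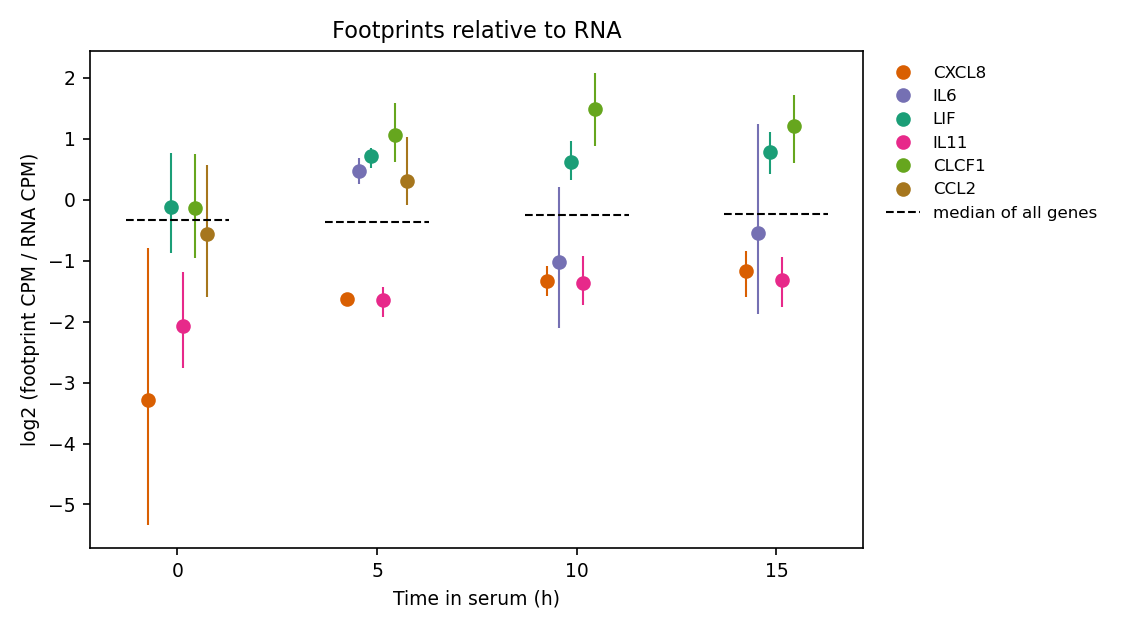
Log2 ratio of mean footprint CPM to mean RNA CPM (y axis) against hours in serum for 6 members, with 4 libraries each. Bars are 95% counting intervals from the counts pooled over those libraries, and dashed lines the median of all genes. Points with 3 or fewer counts in either assay are left out. CXCL8 and IL11 lie below the median and LIF and CLCF1 above it at 5 h, 10 h and 15 h.

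Beside each list, the share of all genes tested that were called at 5 h is 19.2% higher and 16.7% lower in RNA and 35.2% higher and 40.5% lower in footprints. IL6ST, the shared chain gp130, rose at 5 h by 0.70 ± 0.21 on the log2 scale in RNA (edgeR adjusted p = 0.014) and 0.33 ± 0.05 in footprints, and was the 1 receptor of 3 tested that rose in RNA. In footprints 5 of 12 receptor genes were tested, and 2 rose and 3 fell at 5 h. Named here after their values were seen, the oncostatin M receptor OSMR also rose (0.53 ± 0.06), while IL6R, the binding receptor of IL6 (-2.14 ± 0.25), LIFR, that of LIF (-1.05 ± 0.10), and the chemokine scavenger ACKR3 (-3.96 ± 0.74, from 49 counts at 0 h to 4 at 5 h) fell. IL6R footprints went from 7.57 ± 0.815 CPM at 0 h to 1.74 ± 0.527 at 5 h and 0.709 ± 0.429 at 15 h. At 15 h all 5 tested receptors were lower than at 0 h in footprints, where 39.6% of all genes were.

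Of 19 other chemokines in the table none was tested in RNA, where the highest count over any group was 12, for CCL26. In footprints CX3CL1 (-2.02 ± 0.42) and CXCL16 (-0.65 ± 0.15) were tested and both fell at 5 h. Below the filter, CCL20 had 22 footprint counts and CCL7 had 10 over the 4 libraries of 5 h, and both had 0 at 0 h, 10 h and 15 h. These were not tested, and CCL20 had no RNA count at any time and CCL7 had 1, at 5 h. The chemokines of this paragraph were named after their values were seen. Of the genes listed with the other interleukin-6 family ligands, 2 were tested in footprints. Cardiotrophin, CTF1, fell at 5 h (-0.95 ± 0.20), and EBI3, at 0.03 ± 0.23, did not pass (edgeR adjusted p = 0.915). Both were named after their values were seen.

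Most tested genes of the NF-kB pathway rose at 5 h, and most fell from 5 h to 10 h. In RNA 10 of 12 tested rose at 5 h (19.2% of all genes) and none fell, with a median log2 change of 1.49 beside -0.03 over all genes, and 7 fell from 5 h to 10 h (9.56% of all genes). Footprints gave 12 of 14 higher at 5 h (35.2% of all genes, median 1.21) and 10 of 14 lower from 5 h to 10 h (30.7%). The inhibitor TNFAIP3 went from 2.02 ± 0.408 to 58.6 ± 7.70 CPM in footprints (log2 4.84 ± 0.25), and the subunits RELB (3.53 ± 0.20), NFKB2 (2.19 ± 0.09) and NFKB1 (1.61 ± 0.07) also rose. RELB then fell by 2.56 ± 0.13 on the log2 scale and TNFAIP3 by 1.68 ± 0.09, beside a log2 change of -6.08 for IL6.

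JAK-STAT genes, which act downstream of gp130, had few calls in RNA at 5 h: 1 of 12 tested rose (JAK1, 0.48 ± 0.12; 19.2% of all genes did) and 2 fell (16.7%), the STAT3-induced inhibitor SOCS3 (-0.84 ± 0.28) and the kinase PIM1 (-1.77 ± 0.51). In footprints 4 of 15 rose (35.2% of all genes) and 8 fell (40.5%), with SOCS3 at 0.01 ± 0.17. Of the listed genes for mRNA decay and stability, 1 of 6 rose in RNA at 5 h, the ribonuclease gene ZC3H12A (0.74 ± 0.26). In footprints 7 of these 9 genes rose (35.2% of all genes) and 2 fell (40.5%). Among upstream and parallel cytokines and mediators, 2 of 7 rose in RNA, PTGS2, which makes prostaglandins (6.63 ± 0.67, from 4 counts at 0 h), and the alarmin IL33 (2.66 ± 0.43), and 2 fell, TGFB2 (-1.12 ± 0.18) and TNFRSF1A (-0.89 ± 0.25). In footprints 4 of 9 rose and 3 fell, beside 35.2% and 40.5% of all genes.

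By correlation of log2 CPM over the 16 footprint libraries, the genes most like CXCL8 among the 7992 non-member genes tested in both assays, with a mean of at least 10 footprint CPM at some time, were DNAJB11 (r = 0.996), STC1 (0.992) and XBP1 (0.991). Those most like IL6 were HYCC1 (0.989) and the NF-kB genes RELB and NFKB1 (both 0.986). LIF was most like CDK17 (0.992), ACSL4 (0.992) and TRIO (0.990), and CCL2 most like ELOVL7 (0.976), ZNF281 (0.964) and MYO1E (0.958). In RNA other genes came first: NAV3 for CXCL8 (0.978), PTGS2 for IL6 (0.959) and SPHK1 for LIF (0.983). Among the members, footprint r was highest for LIF with IL11 and with CXCL8 (both 0.981) and lowest for CCL2 with CLCF1 (0.453). The 16 points are 4 time groups of 4 libraries, so these values describe time courses that all turn at 5 h.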

How the data were processed

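RNA-seq and Ribo-seq libraries (16 each) of RPE-1 cells came as 1 deposited table of counts, whole numbers of reads per gene that the authors had not normalised. Ribosomal RNA was depleted with Ribo-Zero Gold, per the labels' protocols. Reads were aligned with STAR 2.5.4a to GRCh38 and counted with featureCounts 1.5.1, per the submitters' processing notes; strand, shared-read and molecular identifier handling are not given in the sources used here. Of 19023 genes, 18905 had a symbol. Lengths were multiples of 3 in 96.5% and are read as coding length, which was not checked against each gene's full coding sequence.

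Each assay was scaled with TMM factors and fitted with edgeR 4.0.16 (quasi-likelihood, robust, R 4.3.3) over its 16 libraries by time. Genes passing filterByExpr (minimum count 10) were tested, 8775 in RNA and 10959 in footprints, and 8736 in a joint fit for TE. Calls are 2-sided, Benjamini-Hochberg adjusted p under 0.05. CPM use scaled library sizes. Pair ratios add 0.5 to each count. Patterns use log2 CPM with a prior count of 2. Errors are SD for CPM and Wald SE for log2 changes; intervals cover counting error only.

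Named genes are the 9 members, the 3 genes most correlated with CXCL8, CCL2, IL6 and LIF among those with a mean footprint level of at least 10 CPM at some time, and up to 4 per pathway list with the largest called RNA change at 5 h. The members, lists and tests were chosen with earlier results of these data known, and the pair ratios after these values were seen. Replicate numbers were checked for pairing: same-numbered RNA libraries deviated together with r from 0.124 to 0.348 in the 15 h and 0 h groups, where every pair was over 0.1, and not in every pair of the other contrasts. Alternatives were DESeq2 1.42.0, RLE factors, no filter, 2 groups only, a replicate block and leaving out each library. The scripts were tested on simulated data. One item of the pathway lists is not reported here.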

Additional observations from a re-analysis of the deposited data

Results flagged for a closer look

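Groups of 4 libraries were checked for a library far from the others by Dixon's criterion at the 95% level, 54 groups in all, and chance marks about 1 in 20 of them. At 5 h, the footprint library of replicate 1 had 287.6 CPM of CXCL8, from 2181 counts, below the other 3 at 432 to 457 CPM. Without it, CXCL8 rose by 10.99 and fell by 4.58 on the log2 scale, beside 10.86 and 4.46 with it. At 0 h, the RNA library of replicate 4 had 0 CPM of CLCF1, from 0 counts, beside 5.78 to 6.36 CPM in the others, which had 5, 6 and 4 counts.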

How the results depend on the processing

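No member's change that was called in the main or the alternative run turned over in direction. Changes of sign where neither run made a call were not recorded. With no filter on low counts, 7 members were called in RNA at 5 h against 0 h in place of 4, adding CXCL3 (adjusted p = 0.000104), CCL2 (0.0436) and CLCF1 (0.0483), and in footprints CXCL1 (3.41e-07) and CXCL2 (0.0246) passed. The same setting gave 0 members with a TE call at 15 h against 0 h (IL6 adjusted p = 0.0629) and 1 gene for TE at 15 h against 10 h. With the replicate number as a block, 1170 genes were called in RNA at 15 h against 10 h (519 without), and for TE 1048 (565) at 5 h, 1018 (632) at 10 h and 1542 (958) at 15 h against 0 h, 146 (57) at 10 h against 5 h and 8 (0) at 15 h against 10 h. The block made IL6 the 1 member with a TE call at 10 h against 0 h (log2 3.52, adjusted p = 0.0427), as did DESeq2 (1 member, 3.83, 0.039), and changed no other member's call, RNA at 15 h against 0 h included. DESeq2 called 115 genes for TE at 10 h against 5 h and 2 at 15 h against 10 h. Leaving out single libraries gave 333 to 717 genes in RNA at 15 h against 10 h (333 without 10 h replicate 3, 341 and 343 without 15 h replicates 1 and 4), 0 to 4 for TE in that step, 4 to 5 members in RNA at 5 h, 5 to 6 in footprints at 10 h against 0 h, and 0 to 1 for TE at 10 h and at 15 h against 0 h. The causes were not tested. Over 20 same-numbered pairs per assay, 14 RNA and 1 footprint correlation exceeded 0.1, and 10 and 12 of 20 correlated best with their own number. Every pair was over 0.1 only in RNA at 15 h against 0 h. Single RNA pairs elsewhere exceeded its highest r of 0.348, with 0.571 at 10 h against 5 h, 0.567 at 15 h against 10 h and 0.505 at 10 h against 0 h. The main fits did not use the numbers as pairs, and whether pairing extends beyond that contrast cannot be told. With a pseudocount of 1, added after seeing the data, all 27 pair ratios kept direction and call. RLE factors put the 5 h footprint ratio of CXCL8 at -1.59. RNA depth limits CXCL1, CXCL2 and the 0 h values of CXCL8 and IL6.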
